A study of Homo sapiens with 8 samples.

Results

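Small nucleolar RNAs (snoRNAs) are cut from the introns of host genes. The transcripts of 5 such noncoding hosts, EPB41L4A-AS1, SNHG32 (formerly C6orf48), ZFAS1, SNHG17 and GAS5, are described here in kidney cancer cells treated with an inhibitor of stearoyl-CoA desaturase. They are read by 10 probe sets that the platform annotation gives to 1 of these genes and to no other gene, out of 54675 probe sets on the array and 19775 genes with such a probe set. EPB41L4A-AS1 had 2 of these probe sets, SNHG32 had 1, ZFAS1 had 4, SNHG17 had 2 and GAS5 had 1. The genes were chosen by their signal differences between A939572 and DMSO in these same arrays, so those differences are given as a description and were not tested.

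The treated cells had received 75 nM A939572, a small-molecule inhibitor of the desaturase SCD1, for 24 h, and the controls had received the solvent DMSO for the same time. Both groups held the same 4 established human lines, ACHN, CAKI2, A498 and CAKI1, labelled as clear cell renal carcinoma, with 1 array per line and treatment and so 4 arrays per group. All cells grew in serum-supplemented DMEM. The labels name no separate cultures within a line, so every spread below is a spread between lines, and each line is a single stock of cells. The design asks which transcripts change with the drug and how far the lines share the change.

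A snoRNA pairs with ribosomal or spliceosomal RNA and guides the chemical modification of a base, box C/D snoRNAs (SNORD) for methylation and box H/ACA snoRNAs (SNORA) for pseudouridylation. In a noncoding host the spliced RNA that remains carries short reading frames or none, often starts with the pyrimidine-rich element of ribosomal protein messages, and in many cases is destroyed by nonsense-mediated decay once ribosomes read it. GAS5 was named for its accumulation in growth-arrested cells. In the RefSeq annotation of GRCh38.p14, EPB41L4A-AS1 (chr5:112160526-112162501) enclosed SNORA13 and SNHG32 (chr6:31834916-31839761) enclosed SNORD48 and SNORD52. ZFAS1 (chr20:49278178-49289260) enclosed SNORD12, SNORD12B and SNORD12C, and SNHG17 (chr20:38420588-38435328) enclosed SNORA71A, SNORA71B, SNORA71C and SNORA71D. GAS5 (chr1:173863901-173869045) enclosed 11 snoRNAs, of which 10 were of the SNORD class. The annotation held 1 transcript of EPB41L4A-AS1, 9 of SNHG32, 5 of ZFAS1, 67 of SNHG17 and 50 of GAS5, so a probe set need not read all spliced forms of its gene.

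The starts of the 5 genes are shown because several of the hosts had higher signals with the drug and a pyrimidine-rich start is a known feature of the class. Each window runs from 50 bases before to 50 after the start in the RefSeq table (GRCh38.p14), 5′ to 3′ on the strand of the gene, and capitals mark the longest unbroken run of C and T after the start, or the first of equal runs. For ZFAS1 the promoter table uses a start at base 49278642, which lies 464 bases inside the span of the gene given above. For the other 4 it uses the 5′ boundary of the span, on the strand of the gene. The windows are chr5:112160476-112160575 (plus strand), chr6:31834866-31834965 (plus), chr20:49278592-49278691 (plus), chr20:38435279-38435378 (minus) and chr1:173868996-173869095 (minus), in the order of the lines.
EPB41L4A-AS1: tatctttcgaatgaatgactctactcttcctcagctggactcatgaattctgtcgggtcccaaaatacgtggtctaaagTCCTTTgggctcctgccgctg
SNHG32: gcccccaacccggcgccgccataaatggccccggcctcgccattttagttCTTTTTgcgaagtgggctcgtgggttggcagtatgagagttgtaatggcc
ZFAS1: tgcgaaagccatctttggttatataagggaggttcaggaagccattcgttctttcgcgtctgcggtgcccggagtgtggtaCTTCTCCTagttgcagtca
SNHG17: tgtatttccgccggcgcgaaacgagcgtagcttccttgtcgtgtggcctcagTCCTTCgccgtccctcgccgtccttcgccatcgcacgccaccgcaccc
GAS5: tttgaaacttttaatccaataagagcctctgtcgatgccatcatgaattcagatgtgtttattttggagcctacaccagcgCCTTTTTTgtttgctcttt

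In SNHG32 the run was 6 bases long and began at base 1 after the annotated start. In SNHG17 there were 3 runs of 6 bases, which began at bases 3, 13 and 23, and in EPB41L4A-AS1, where the run had the same length, it began at base 30. ZFAS1 and GAS5 had runs of 8 bases that began at base 32. In ZFAS1 a shorter run, ctttc, which is not marked above, began at base 1. Runs of at least 6 bases were present after the start of 41.1% of all 35116 promoters in the table, and runs of at least 8 bases in 17.1%, so such lengths are common. Over the 250 bases before and 50 after the start, on either strand, none of the 5 genes held CACGTG (7.26% of all promoters), TGACGTCA (1.85%), TGATGCAA (0.866%) or TATAAA (11.5%). CCAAT was found in GAS5 alone among them, visible above as ccaat before the start, and in 34.6% of all promoters. A match or its absence describes these letters and is no measure of binding.

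Most of the probe sets carried far more signal in treated cells, and in EPB41L4A-AS1 and ZFAS1 a dimmer probe set of the same gene differed by less than 2-fold in each line. The deposited signals are linear and, as the equal trimmed means of the arrays show, were scaled before deposit, so a level is relative to the rest of that array's RNA. Differences are A939572 minus DMSO within a line on quantile-normalized log2(signal + 16), with the mean and SD over the 4 lines. Of the 10 probe sets 7 were higher with the drug in all 4 lines, where 22% of the 27307 probe sets with a mean at or above the median level were. All 10 reached that level. For 6 of the 10 the difference was at least 2-fold in every line (0.89% of all), and for 5 of them each treated array lay above each DMSO array (4.55% of all). A mean difference of at least 2-fold was seen for 7 of the 10 (3.72% of all). By line, at least 2-fold higher signals were seen for 7 probe sets in ACHN (7.84% of all), 6 in CAKI2 (6.51%), 7 in A498 (6.26%) and 7 in CAKI1 (5.32%). These counts rest on the values by which the genes were chosen, and nothing is read from their excess over the background. In bulk RNA, more of a transcript per cell and more cells that contain it cannot be told apart.

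**Figure D1:**
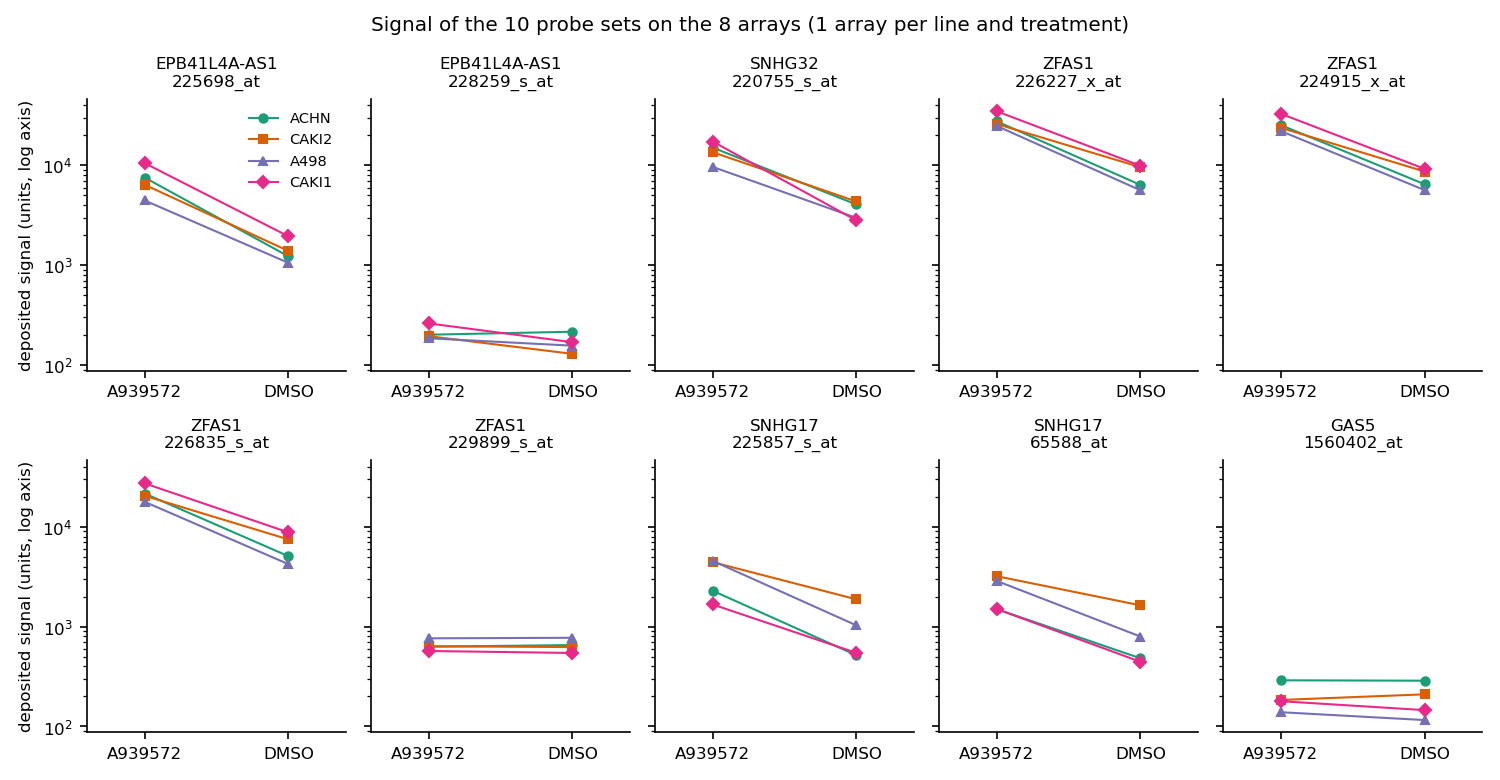
Deposited signal (units, log axis) of the 10 probe sets on the 8 arrays, with A939572 left of DMSO and a line joining the 2 arrays of each cell line. In 7 panels all 4 lines slope down towards DMSO. ZFAS1 229899_s_at is flat in every line, and EPB41L4A-AS1 228259_s_at and GAS5 1560402_at differ by less than 2-fold in each line.

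EPB41L4A-AS1 overlaps the protein-coding gene EPB41L4A on the other strand and hosts a single H/ACA snoRNA. Its probe set 225698_at had signals of 7559.7 (ACHN), 6406 (CAKI2), 4459 (A498) and 10550.5 (CAKI1) with A939572, against 1228, 1389.7, 1056 and 1949 with DMSO in the same order of lines. The lowest treated array, A498, lay above the highest DMSO array, CAKI1. The mean log2 difference was 2.30 ± 0.26 (SD, n = 4 lines), or 4.94-fold, the largest of the 10 probe sets, and ran from 4.16-fold in A498 to 6.17-fold in ACHN. The other probe set, 228259_s_at, had 201, 194, 185 and 261 with A939572 and 215, 129, 156 and 169 with DMSO. It differed by 0.35 ± 0.28, higher in 3 of 4 lines, and the groups overlapped. Within a line the first exceeded the second by a log2 difference of 1.59 to 2.64.

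SNHG32 lies in the major histocompatibility region close to the heat shock genes HSPA1A and HSPA1B and hosts a pair of box C/D snoRNAs. Probe set 220755_s_at had 15089 (ACHN), 13571 (CAKI2), 9664 (A498) and 17358 (CAKI1) with A939572, against 4059, 4349, 2974 and 2808 with DMSO. Every treated array lay above every DMSO array. CAKI1 had the lowest signal of the DMSO arrays and the highest of the treated ones, and its difference was 5.94-fold, where the other lines had 3.24-fold to 3.72-fold. The mean difference was 1.98 ± 0.40, or 3.95-fold.

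ZFAS1 starts next to ZNFX1, on the opposite strand, and hosts the SNORD12 family. Its brightest probe set, 226227_x_at, had 27656 (ACHN), 26013 (CAKI2), 24887 (A498) and 34884 (CAKI1) with A939572, against 6375, 9596, 5629.8 and 9920.1 with DMSO. The groups did not overlap. After quantile normalization the treated levels were close to each other across lines (SD 0.07 in log2 units). The DMSO levels spread more (SD 0.37). The deposited treated signals lay further apart, with 34884 in CAKI1 against 24887 in A498, so that closeness holds for the normalized scale only. The larger differences were those of A498 and ACHN, which had less in DMSO. The highest signal of any probe set on an array was 53167 to 70468, so the treated ZFAS1 signals lay in the upper part of the range. The mean difference was 1.95 ± 0.33, or 3.85-fold.

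A pair of further ZFAS1 probe sets behaved alike, with 1.85 ± 0.20 for 224915_x_at and 1.83 ± 0.32 for 226835_s_at. In each of them the treated arrays lay above all DMSO arrays. The dimmest, 229899_s_at, had 630.4, 637, 765 and 571 with A939572 in ACHN, CAKI2, A498 and CAKI1, and 655, 625, 775 and 545 with DMSO. Its differences ran from -0.04 to 0.06 with a mean of 0.00 ± 0.04, the smallest SD of the 10 probe sets, and within a line it trailed the brightest by 1.61 to 2.38. The 3 probe sets with the larger difference carry the suffix _x_at or _s_at, as does the one without, which marks probes that can match several transcripts.

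SNHG17 lies on chromosome 20 and hosts the SNORA71 family. Probe set 225857_s_at had 2293 (ACHN), 4435 (CAKI2), 4568 (A498) and 1669.8 (CAKI1) with A939572, against 517, 1880.0, 1031 and 546 with DMSO. All 4 lines were higher with the drug, but the groups overlapped, because CAKI2 in DMSO lay above CAKI1 with A939572. The mean difference was 1.75 ± 0.46, or 3.35-fold, from 2.31-fold in CAKI2 to 4.4-fold in A498. The second, 65588_at, is annotated to the same source sequence and had 1501, 3207, 2876 and 1503 with A939572, against 482, 1638, 796 and 445 with DMSO. It differed by 1.51 ± 0.40, and in CAKI2, the line with the highest DMSO signal, by 1.92-fold.

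GAS5, the host with the most snoRNAs, differed little by its only probe set with 1 gene symbol. Probe set 1560402_at had 290.3 (ACHN), 184 (CAKI2), 139 (A498) and 179 (CAKI1) with A939572, against 288, 210.1, 116 and 146 with DMSO. The mean difference was 0.12 ± 0.22, with 3 of 4 lines higher, and the groups overlapped. By this probe set GAS5 lay among the 3 of the 10 with a mean difference under 2-fold.

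A further 4 probe sets are annotated to GAS5 jointly with 8 snoRNAs of its introns, and their signal is therefore not assigned to GAS5 alone. They fell into 2 kinds. Probe set 224741_x_at had 26132 (ACHN), 16405 (CAKI2), 12976 (A498) and 29512 (CAKI1) with A939572, against 9121, 5255, 4788 and 6922 with DMSO, a difference of 1.68 ± 0.23 without overlap of the groups. Probe set 224841_x_at differed by 1.70 ± 0.28. In contrast 227517_s_at had 8058, 4145, 4717 and 5652 with A939572 against 9333, 3955, 6227 and 4461 with DMSO, a difference of -0.04 ± 0.32. Probe set 228238_at differed by 0.00 ± 0.50, from -0.39 in ACHN to 0.71 in CAKI1. The split seen between probe sets of EPB41L4A-AS1 and of ZFAS1 was therefore also present among these. Where the probes lie within the exons and introns was not analysed here.

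**Figure D2:**
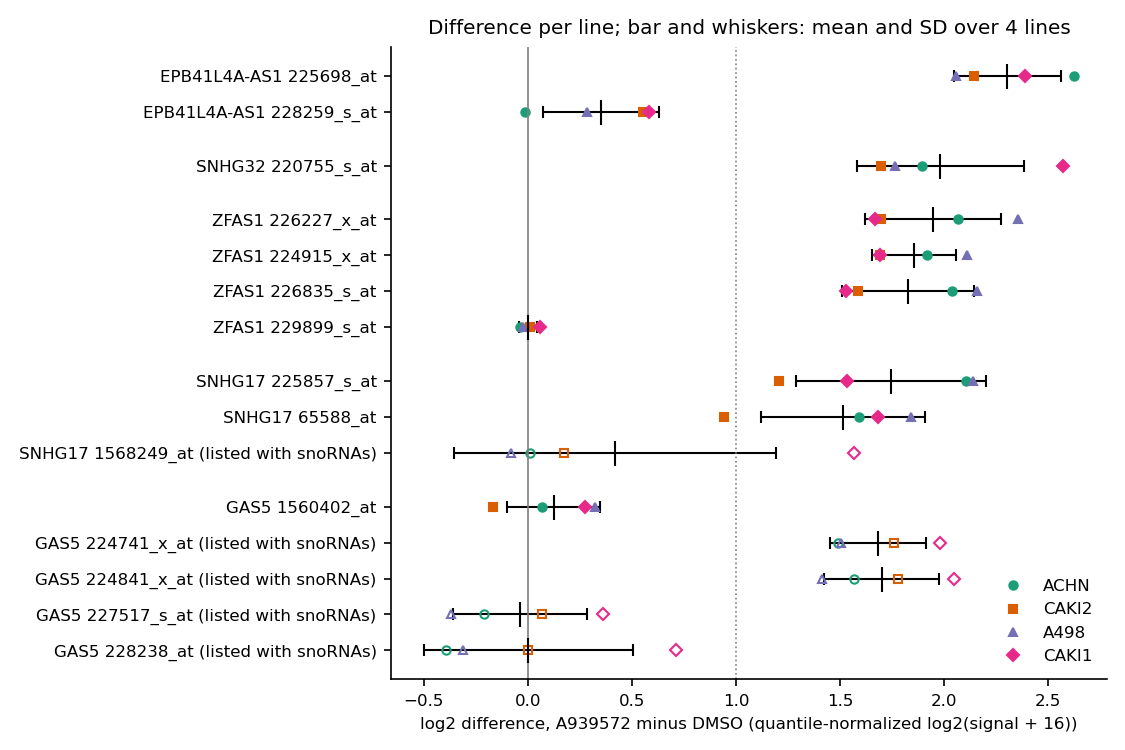
Log2 difference, A939572 minus DMSO, for each of the 10 probe sets (filled symbols) and the 5 listed with snoRNAs (open symbols), by cell line, with the mean and SD over 4 lines. Solid and dotted grey lines mark 0 and a 2-fold difference. ZFAS1 and GAS5 have probe sets near 0, EPB41L4A-AS1 has one at 0.35, and the probe sets to the right of the dotted line have means between 1.51 and 2.30.

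Several features of the arrays moved with the drug. For ACTB, the control probe set at the 3′ end over that at the 5′ end gave a ratio of 3.02 to 4.22 with A939572 and 2.12 to 2.33 with DMSO, and that for GAPDH was 1.01 to 1.11 with A939572 and 0.962 to 1.05 with DMSO. Their part in the differences of the host transcripts was not tested. SCD, the gene of the inhibited enzyme, fell by 0.52 ± 0.34 (limma adjusted p = 0.0121), which is no check of the labels because the drug acts on the protein. Of 5 markers of renal epithelium, PAX8, KRT8 and KRT18 were at or above the median level on all 8 arrays, PAX2 on 6 and CDH16 on 4. PTPRC of leukocytes, CDH5 and VWF of endothelium and COL3A1 of fibroblasts reached it on 0 arrays, while PECAM1 of endothelium did on 8, CD3E of leukocytes on 3, and of the fibroblast markers DCN on 4, COL1A2 on 1 and COL1A1 on 7. COL1A1 was at a mean log2 level of 7.87 with A939572 and 8.90 with DMSO. Summed signals were 12706 to 30268 with A939572 and 15134 to 33342 with DMSO for the renal markers. For 2 leukocyte markers they were 33.1 to 96.5 with A939572 and 51.2 to 101 with DMSO, and for 3 endothelial markers 139 to 324 with A939572 and 156 to 486 with DMSO. The 4 fibroblast markers summed to 167 to 1002 with A939572 and 163 to 1396 with DMSO. Their part in the differences of the hosts was not tested.

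The levels of the hosts between cell lines were not used to pick them and were tested. The error term of these tests is the spread of the drug differences between lines. The hosts were chosen by those differences, so these p-values are not free of that choice. Taking each gene by its brightest probe set and both arrays of a line, with the drug as a term, 3 of the 5 differed between the lines (limma moderated F test, Benjamini-Hochberg over 12093 genes), in a set of lines where 61% of all genes did. SNHG17 differed most (adjusted p = 0.00131). Its mean log2 level was 11.52 in CAKI2, 11.11 in A498, 10.10 in ACHN and 9.95 in CAKI1, and 4 of its 6 pairs of lines passed. Over all genes a pair of lines passed for 34.5% (ACHN and CAKI2), 30.7% (ACHN and A498), 26.9% (ACHN and CAKI1), 33.8% (CAKI2 and A498), 36.4% (CAKI2 and CAKI1) and 36% (A498 and CAKI1). CAKI2 exceeded CAKI1 by 1.57 ± 0.25 (SE, limma adjusted p = 0.00117), and ACHN minus A498 was -1.01 ± 0.25 (limma adjusted p = 0.0133). The neighbours CAKI2 and A498 (adjusted p = 0.24 in limma) and the neighbours ACHN and CAKI1 (adjusted p = 0.67) did not pass. In 65588_at the DMSO signals followed the same order of lines as this mean.

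EPB41L4A-AS1 was highest in CAKI1 (12.14), followed by ACHN (11.58), CAKI2 (11.56) and A498 (11.11), with an adjusted p = 0.00677 in limma. CAKI1 passed against each of the other lines, with ACHN minus CAKI1 at -0.56 ± 0.18 (SE, adjusted p = 0.0491), while no pair among ACHN, CAKI2 and A498 did. Without CAKI1 the F test gave an adjusted p = 0.113. In the dimmer probe set of this gene, 228259_s_at, CAKI1 had the highest signal with A939572 (261). With DMSO the highest was ACHN (215, against 169 in CAKI1). GAS5, by its dim probe set, had 8.26 in ACHN, 7.71 in CAKI2, 7.55 in CAKI1 and 7.08 in A498 (adjusted p = 0.0262), and ACHN against A498 was the only pair that passed, with a difference of 1.18 ± 0.28 (SE, adjusted p = 0.0113). That F test was lost without ACHN (adjusted p = 0.21), without A498 (0.117) and with no filter on dim genes (0.076).

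SNHG32 and ZFAS1 did not pass between lines (limma adjusted p = 0.159 and 0.126), and 0 of 6 pairs passed for either. SNHG32 had 12.96 in ACHN, 12.92 in CAKI2, 12.74 in CAKI1 and 12.45 in A498. ZFAS1 had 14.06 in CAKI1, 14.03 in CAKI2, 13.70 in ACHN and 13.66 in A498. ZFAS1 passed with median centring of the arrays (adjusted p = 0.0324) and SNHG32 without CAKI1 (adjusted p = 0.0297). The spread within a line here includes what the drug did differently between lines, and each line had 2 arrays.

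**Figure D3:**
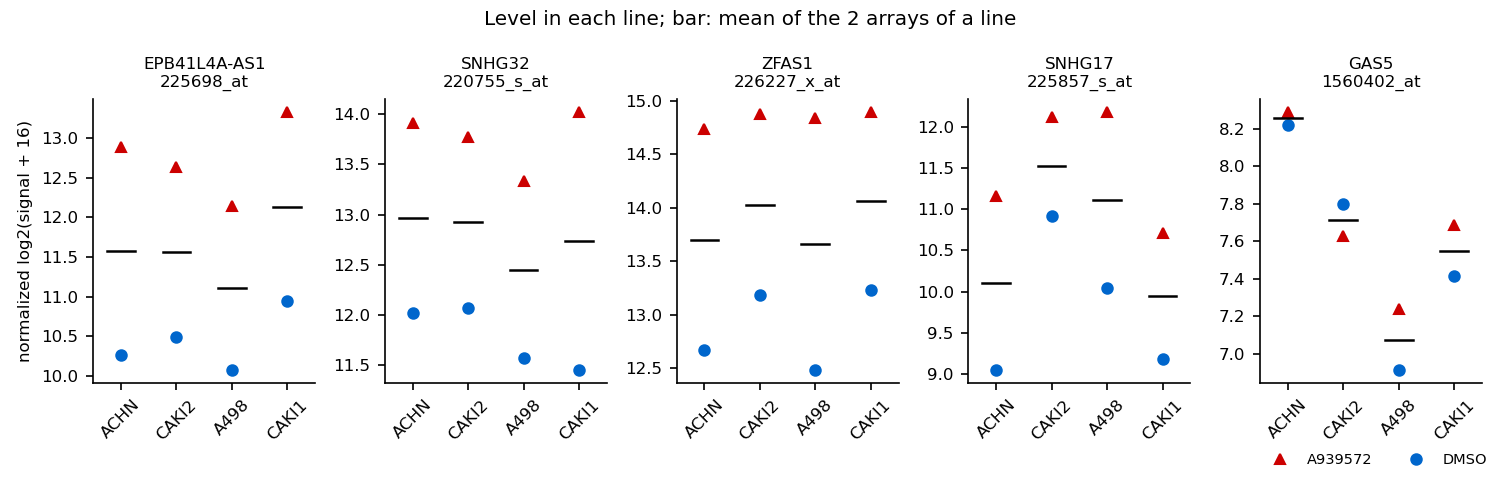
Normalized log2(signal + 16) of the brightest probe set of each gene with 1 symbol, by cell line, with A939572 as triangles, DMSO as circles and a bar at the mean of both arrays. SNHG17 is higher in CAKI2 and A498 than in ACHN and CAKI1. The treated values of ZFAS1 lie within a narrow band on this normalized scale, narrower than that of the deposited signals. Each panel has its own scale.

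The probe sets named by likeness had the highest Pearson correlation with a host over the 8 arrays, which share the drug contrast and the 4 lines. For EPB41L4A-AS1 these were AZI2 (r = 0.988), BTN2A2 (0.981) and the histone demethylase KDM3A (0.978). For ZFAS1 they were ZBTB49 (0.99), the selenoprotein of the endoplasmic reticulum SELENOK (0.989) and again KDM3A (0.983). SNHG32 had the stress-induced transcription factor ATF3 (0.977), IRF2 (0.96) and SPMIP4 (0.959), and SNHG17 had HAPSTR1 (0.99), ZNF791 (0.984) and the kinase MAPK6 (0.977). The genes named so far were all higher with A939572 on average, by 0.38 ± 0.10 (IRF2) to 4.02 ± 0.16 (ATF3). GAS5, by 1560402_at, had NAT8L (0.97), CAMKK2 (0.97) and DDIT4L (0.968), which differed between A939572 and DMSO by 0.29 ± 0.61, 0.16 ± 0.18 and -0.01 ± 0.33. Among the hosts themselves r was 0.963 for EPB41L4A-AS1 with ZFAS1, 0.949 for EPB41L4A-AS1 with SNHG32 and 0.94 for SNHG32 with ZFAS1, and SNHG17 had 0.632 to 0.784 with these 3. The hosts were chosen by the drug contrast, so these values of r in part restate that choice. By 1560402_at, the r of GAS5 with the others ran from -0.11 to 0.33. The joint GAS5 probe sets 224741_x_at and 224841_x_at, which differed by 1.68 ± 0.23 and 1.70 ± 0.28, were not part of these correlations.

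Genes around and beyond the hosts were compared between A939572 and DMSO with limma, with the cell line as a block and over 12093 genes, of which 14.7% passed as higher and 15.9% as lower, or 30.6% either way. The median difference of all genes was -0.03. Of 28 other noncoding snoRNA hosts on a list, 8 had a probe set with 1 symbol and 6 were tested, of which 1 was higher and 0 lower (1 and 1 at an unadjusted p under 0.05), with a median of -0.12. The one was SNHG33, with 1970.4 (ACHN), 5135 (CAKI2), 1928 (A498) and 2274 (CAKI1) with A939572 against 981, 3689, 1342 and 1474 with DMSO. SNHG33 rose by a log2 difference of 0.63 ± 0.23 (limma adjusted p = 0.00661) and by 0.47 ± 0.06 in its other probe set. SNHG19 and DANCR, named after their values were seen, had -0.42 ± 0.35 and -0.30 ± 0.55 and did not pass.

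Most other noncoding hosts are annotated, like GAS5, jointly with the snoRNAs they enclose, and their 18 probe sets at or above the median level, for 13 hosts, are described without a test. They were looked at after the values of the hosts had been seen. Of the 18, 9 were higher in all 4 lines (22% of all probe sets were) and 1 was lower in all 4, and 6 had a mean difference of at least 2-fold (3.72% of all). Their median was 0.57. The joint probe sets of SNHG15 (1.44 ± 0.25), SNHG8 (1.37 ± 0.64) and SNHG5 (1.09 ± 0.89) were higher in each line, and that of SNHG5 ranged from 0.30 in CAKI1 to 2.24 in A498.

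The 3 joint probe sets of SNHG12 disagreed with each other: 223774_at and 223773_s_at differed by 1.43 ± 0.34 and 1.36 ± 0.16, and 228990_at by -0.54 ± 0.14, lower in 4 of 4 lines. Those of SNHG1 (0.51 ± 0.16) and SNHG11 (0.81 ± 0.12) were higher in each line by less, and the pair of SNHG16 had -0.11 ± 0.28 and 0.01 ± 0.23. A joint probe set of SNHG29 had a mean of 1.02 with 2.87 in ACHN and -0.13 in CAKI2.

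The other large class of hosts encodes proteins. Of 8 tested ribosomal protein hosts 0 were higher and 0 lower in limma, also at an unadjusted p under 0.05, and their median was 0.02, against -0.018 with median centring of the arrays and -0.10 on the deposited scale. RPL30 had 0.10 ± 0.08 and RPS3 had -0.22 ± 0.24. Of the 37 joint probe sets of ribosomal protein hosts at or above the median level, 0 had a mean difference of 2-fold either way, and their differences ran from -0.46 to 0.47 with a median of 0.01. Of 20 other protein-coding hosts 4 were higher and 4 lower, with a median of -0.06. The translation factor EIF5 rose by 0.79 ± 0.35 (limma adjusted p = 0.0023) and TAF1D, a subunit of the polymerase I selectivity factor, by 0.50 ± 0.21 (adjusted p = 0.0215). C12orf57 rose by 0.40 ± 0.28 (adjusted p = 0.0455), and the histone chaperone NAP1L4 fell by 0.65 ± 0.25 (adjusted p = 0.00581), with -0.55 ± 0.26 in its next brightest probe set. A dimmer one had 0.26 ± 0.54, and the mean of its probe sets did not pass (0.346). The call of TAF1D was lost without ACHN (adjusted p = 0.0991) or CAKI2 (0.0623), and that of C12orf57 without ACHN (0.185), CAKI2 (0.14) or CAKI1 (0.0707).

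**Figure D4:**
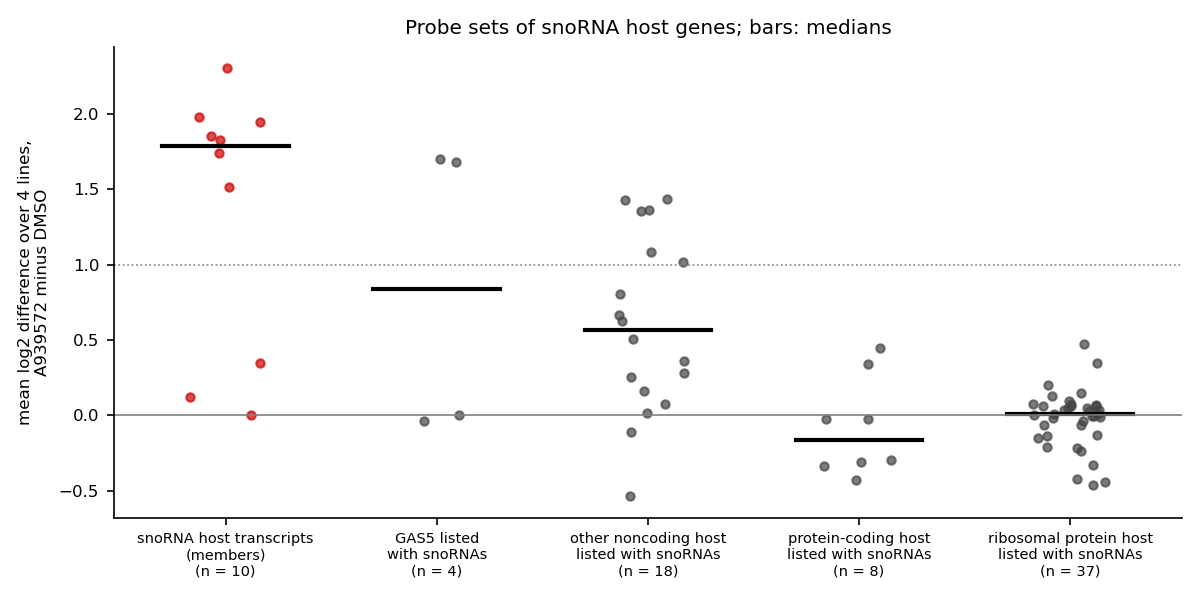
Mean log2 difference over 4 lines, A939572 minus DMSO, with 1 point per probe set and bars at the medians, for the 10 host probe sets and for probe sets at or above the median level that are annotated jointly with snoRNAs (4 of GAS5, 18 of other noncoding hosts, 8 of protein-coding and 37 of ribosomal protein hosts). The 37 of ribosomal protein hosts lie between -0.46 and 0.47, the 18 of other noncoding hosts between -0.54 and 1.44. Solid and dotted lines mark 0 and 2-fold.

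Ribosomal protein messages and those of several translation factors are known to begin with a pyrimidine-rich element. Of 12 tested translation factors of this kind 1 was higher and 0 lower in limma (1 and 0 at an unadjusted p under 0.05), with a median of 0.05, against -0.006 on the deposited scale. That gene was HNRNPA1, an RNA-binding protein, which rose by 0.89 ± 0.29 (adjusted p = 0.000925). Probe sets 221919_at and 222040_at of the same gene had 0.17 ± 0.26 and 0.18 ± 0.32, and with _x_at and _s_at probe sets left out it did not pass (adjusted p = 0.414).

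Of 8 tested snoRNP proteins, which bind the snoRNAs, 1 was higher, 2 were lower and 5 did not pass, with a median of -0.16. NHP2, a core protein of H/ACA particles, fell by 0.87 ± 0.26 (limma adjusted p = 0.00101), and fibrillarin (FBL), the methyltransferase of C/D particles, fell by 0.66 ± 0.25 (adjusted p = 0.00316). NOP58, a C/D core protein, rose by 0.46 ± 0.27 (adjusted p = 0.0166), a call lost without CAKI2 (0.0711) or A498 (0.0687). Of 10 assembly factors 1 was higher and 1 lower, with a median of -0.04, against 0.061 with median centring. The ATPase RUVBL2 fell by 0.52 ± 0.07 (adjusted p = 0.00478), with -0.59 ± 0.11 in its next brightest probe set. A further one, below the median level, had 0.26 ± 1.17, and the mean of its probe sets did not pass (0.218). PIH1D1 of the R2TP complex rose by 0.40 ± 0.05 (adjusted p = 0.0243), a call lost without ACHN (0.0634), CAKI2 (0.0598), A498 (0.0795) or CAKI1 (0.0705).

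Of 18 genes of ribosome production in the nucleolus 3 were higher and 1 lower, with a median of 0.14, and with median centring 4 were higher and 0 lower. RRP12 rose by 0.95 ± 0.33 (limma adjusted p = 0.00246), and the mean of its 5 probe sets by 0.52 (adjusted p = 0.0452). Its other 4 probe sets disagreed, with -0.074 ± 0.77 and 0.048 ± 0.36 in those at or above the median level and 1.14 ± 0.94 and 0.52 ± 1.04 in those below it. RRN3, a polymerase I initiation factor, rose by 0.51 ± 0.21 (adjusted p = 0.013) and the helicase DDX21 by 0.42 ± 0.22 (adjusted p = 0.015), while UBTF, which activates ribosomal RNA transcription, fell by 0.45 ± 0.08 (adjusted p = 0.0394). Without CAKI2 the adjusted p was 0.0581 for RRN3. DDX21 was lost without CAKI2 (0.0546), A498 (0.0654) or CAKI1 (0.0534), and UBTF without any single line (0.0813 to 0.107) and with median centring (0.0835).

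Nonsense-mediated decay destroys many spliced snoRNA host RNAs, and 6 of its 17 tested factors were higher and 1 lower, with a median of 0.18. The helicase DHX34 rose by 0.94 ± 0.64 (limma adjusted p = 0.0353), MAGOHB of the exon junction complex by 0.52 ± 0.18 (adjusted p = 0.0138) and UPF2 by 0.51 ± 0.22 (adjusted p = 0.016). EIF4A3, the anchor of the exon junction complex, fell by 0.61 ± 0.18 (adjusted p = 0.00373). The call of DHX34 was lost without ACHN (0.116) or CAKI2 (0.109), that of MAGOHB without CAKI2 (0.0583) or A498 (0.0585), and that of UPF2 without ACHN (0.071), CAKI2 (0.0505) or A498 (0.0546). MAGOHB had -0.18 ± 0.22 in its other probe set, and the mean of both did not pass (0.355). The other probe sets of DHX34, which lay below the median level, had 0.08 ± 0.19 and 0.37 ± 0.78.

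Of 15 tested messages known to be targets of this decay 8 were higher and 0 lower (8 and 1 at an unadjusted p under 0.05), with a median of 0.68. That list was drawn up with the stress response of these samples known, and its leading genes are also targets of the ATF4 and CHOP stress pathway, so its direction is not independent evidence. ATF3 rose by 4.02 ± 0.16 (limma adjusted p = 3.94e-07), DDIT3, which encodes CHOP, by 2.98 ± 0.66 (adjusted p = 9.17e-05), GADD45A by 2.17 ± 0.26 (adjusted p = 2.52e-05) and TBL2 by 1.00 ± 0.34 (adjusted p = 0.000935). The splicing factor messages SRSF3, SRSF6, SRSF7, TRA2A and TRA2B on the same list, named after their values were seen, had -0.29 to 0.21 and did not pass.

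Of 9 tested genes next to the hosts 2 were higher, 2 were lower and 5 did not pass, with a median of 0.40. With median centring 3 were higher. ZNFX1, which lies 121 bases from ZFAS1, rose by 0.81 ± 0.55 (limma adjusted p = 0.0144), and RALGAPB near SNHG17 by 0.44 ± 0.24 (adjusted p = 0.0395), a call lost without ACHN (0.109), CAKI2 (0.0856) or A498 (0.16). NREP, 183594 bases from EPB41L4A-AS1, fell by 1.80 ± 0.84 (adjusted p = 0.00155), and LSM2 near SNHG32 fell by 0.99 ± 0.20 (adjusted p = 0.00109). Among neighbours named after their values were seen, EPB41L4A, which overlaps EPB41L4A-AS1, had -0.34 ± 0.32 and did not pass (adjusted p = 0.149), and ZBTB37, whose annotated span overlaps that of GAS5, had 0.47 ± 0.27 (adjusted p = 0.101).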

How the data were processed

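Total RNA of the 8 samples was converted to biotin-labelled cRNA and read on 1-colour oligonucleotide arrays, per the labels' protocols. The deposited table gives 1 linear intensity for each probe set and array, with equal trimmed means over arrays, as the values show. The summarization program is not given in the sources used here. Here log2(signal + 16) was quantile normalized over arrays without 62 control probe sets. Genes were named from probe sets with 1 symbol (41091, of which 41037 matched a GRCh38.p14 entry by Entrez ID), 1801 had several and 11721 were unnamed. Each gene was represented by its brightest probe set. The 12093 genes with a mean at or above 6.41, the median of probe sets, were fitted with limma 3.58.1 (R 4.3.3), lmFit and eBayes with trend, 2-sided, Benjamini-Hochberg at 0.05. The fit was tested on simulated data.

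Cell line was a block because both arrays of a line come from the same cells. Their deviations from the group means correlated at 0.818 to 0.864 across genes, and at most at -0.03 with other lines. Taking deviations from group means makes the values with other lines negative on average, so these add no separate support for the pairing. An exact test on 4 pairs cannot go below a p of 0.125. The number of arrays limits the precision. SDs are over the 4 lines. P-values rest only on how far the drug difference varied between these lines, moderated over genes by limma. They cover no separate cultures of a line. Of each list, the text names up to 4 genes that passed with the largest change or, where none passed, 2 with the smallest p, besides genes marked as named later, and for each host the 3 most correlated genes. The hosts, lists and tests were chosen with earlier results of these data known. Alternatives changed the scaling, offset, filter, probe set rule, block, trend and lines.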

Additional observations from a re-analysis of the deposited data

Results flagged for a closer look

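The 4 differences of the probe set 1568249_at, annotated to SNHG17 jointly with a snoRNA, held a line far from the others. CAKI1 had a log2 difference of 1.57, and the other 3 lines had -0.08 to 0.18. The gap was 0.843 of the whole range, above Dixon's critical value for 4 samples, among 45 sets of 4 values looked at, of which chance alone marks about 1 in 20. The CAKI1 signals were 36.0 with A939572 and 2.09 with DMSO, and the mean of this probe set lay below the level used as filter on dim genes.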

How the results depend on the processing

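With the mean of all probe sets of a gene in place of the brightest, the difference of EPB41L4A-AS1 was 1.33 and that of ZFAS1 was 1.41, by construction, since their dimmer probe sets then count. No other alternative moved a host difference by more than its SD between lines. With a line left out, the differences ran from 2.20 to 2.39 for EPB41L4A-AS1, 1.78 to 2.08 for SNHG32, 1.81 to 2.04 for ZFAS1 and 1.61 to 1.92 for SNHG17. That of GAS5, by 1560402_at, ran from 0.058 to 0.22. ZFAS1 and SNHG32 have no probe set without the suffixes _x_at and _s_at, so that setting gave no value for them. With no replicate block, which ignores the pairing by line, limma called 38 genes higher and 29 lower, 0 of the other noncoding hosts higher, and lost 24 of the 27 calls of listed genes named; the cause was not tested. In at least 1 other setting 15 of these 27 calls were lost. With no filter on dim genes these included C12orf57 (adjusted p = 0.0595), DHX34 (0.0759), RALGAPB (0.0508) and UBTF (0.0849), and with no trend C12orf57 (0.0948), DDX21 (0.0701), NOP58 (0.065) and RALGAPB (0.0676). Median centring turned the split of calls to 58.3% higher, against 48% with quantile normalization. With a line left out, genes higher numbered 1237 to 1500 and genes lower 1395 to 1567, and the other noncoding hosts lower numbered 0 to 1. Hosts differing between lines then numbered 2 to 3, and joint probe sets of noncoding hosts higher in all lines left numbered 9 to 11, an alternative chosen after seeing the data. Without _x_at and _s_at probe sets the differences of NAP1L4 (0.26, adjusted p = 0.503), RRP12 (-0.074, 0.875) and MAGOHB (-0.18, 0.62) turned sign and did not pass, because that setting puts another probe set in the place of the brightest.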
